A study of Mus musculus with 10 samples.

Results

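The 9 genes described here encode 4 selective autophagy receptors, Sqstm1, Nbr1, Optn and Tax1bp1, and 5 Atg8 family proteins, Map1lc3a, Map1lc3b, Gabarap, Gabarapl1 and Gabarapl2. They were chosen by symbol, and all 9 were found among the 48476 genes of the count table. RNA was sequenced from mouse embryonic fibroblasts of a CBA/CaJ X C57BL/6J cross that carried an Oct4-GFP reporter. The cells had received retroviruses for Oct4, Klf4 and Sox2, written OKS, together with either FoxO6 (OKS + FoxO6) or the red fluorescent protein DsRed (OKS + DsRed, the control). Each arm was sampled on days 0, 1, 3, 5 and 7 of induction in iCD1 medium, with 1 library per arm and day and 10 libraries in all. Both arms therefore carried OKS and the reporter on every day, day 0 included, and the arms differed by the added gene. Retroviral delivery gives mixed cultures in which the dose of each factor varies from cell to cell.

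Autophagy encloses cytoplasm in a double membrane and delivers it to the lysosome. Atg8 proteins are small ubiquitin-like proteins that are joined to the lipid phosphatidylethanolamine on that membrane, and the receptors bind ubiquitin on the cargo with one part and Atg8 with another. FoxO factors are known in muscle and other tissues as activators of autophagy genes. RNA levels measure the supply of these transcripts, and neither lipid joining nor the flow of cargo was measured here.

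Deposited totals ran from 1208379 to 2225750 expected counts per library, with a median of 1601151. The OKS + FoxO6 library was the deeper of the pair on days 0, 1, 3 and 5, and the OKS + DsRed library on day 7. Levels are given as TPM, RSEM's measure per transcript length and library. Foxo6 itself stood at 0.61 to 2.29 TPM in the OKS + DsRed libraries and at 762 to 1356 TPM in the OKS + FoxO6 libraries. Every library thus matched the arm of its label, and this check does not cover the day. Summed TPM of 10 fibroblast markers ran from 2967 to 10380 in OKS + DsRed and from 3210 to 9744 in OKS + FoxO6, and 3 of 10 passed between the arms, with Pdgfra (0.96 in log2) and Postn (0.69) higher and Col3a1 (-0.64) lower. The arms also differed in markers of other cells. Summed TPM of 5 epithelial markers ran from 11.2 to 610 in OKS + DsRed and from 3.14 to 132 in OKS + FoxO6, and 3 of 3 tested, Cdh1 (-3.12 in log2), Epcam (-1.86) and Krt8 (-2.06), were lower in OKS + FoxO6 (DESeq2 passed 2 of them). For 5 endothelial markers the ranges were 20.8 to 54.8 and 31.8 to 143. Tek and Kdr, which carry most of that sum, were both higher in edgeR (DESeq2 passed 1 of the 2), and Pecam1, Cdh5 and Tie1, at means of 1.15, 0.235 and 0.532 TPM, were too low to be tested. The 6 macrophage markers summed to 14.1 to 55.8 and 18.0 to 29.0 TPM with 0 of 1 past the threshold. For 6 pluripotency markers the sums ran from 1.31 to 296 and from 0.71 to 50.2 TPM. None had enough counts in enough libraries to be tested, though Dppa5a reached 126 TPM and Nanog 58.4 TPM in OKS + DsRed on day 7. No marker was at 0 in all libraries, and the part of other cells in the results below was not tested. In bulk libraries, fewer cells that express a gene and less RNA per cell cannot be told apart.

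Promoters were available from RefSeq (GRCm38.p6) for 8 of the 9 genes, in 10 windows that run from 250 bases before to 50 bases after a start site. The bases just upstream of the genes that were higher in OKS + FoxO6 are shown, since the study added a DNA-binding factor. Each stretch ends at the base before the most upstream start that GENCODE M21 or RefSeq annotates, runs 5′ to 3′ along the gene, and holds at most 120 bases. The stretch of Sqstm1 is shorter because it ends at an exon of Mgat4b on the opposite strand, and Gabarap has too few bases left in its window to be shown. Capitals mark a match to a searched motif.
Sqstm1, chr11:50210828-50210889, minus strand: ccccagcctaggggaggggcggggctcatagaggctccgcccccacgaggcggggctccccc
Optn, chr2:5064118-5064237, minus strand: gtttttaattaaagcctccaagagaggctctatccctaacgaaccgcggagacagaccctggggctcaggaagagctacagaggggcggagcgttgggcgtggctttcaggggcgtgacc
Map1lc3b, chr8:121590241-121590360, plus strand: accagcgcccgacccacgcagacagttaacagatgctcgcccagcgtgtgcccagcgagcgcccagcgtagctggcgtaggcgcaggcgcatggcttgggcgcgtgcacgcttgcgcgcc
Gabarapl1, chr6:129533040-129533159, plus strand: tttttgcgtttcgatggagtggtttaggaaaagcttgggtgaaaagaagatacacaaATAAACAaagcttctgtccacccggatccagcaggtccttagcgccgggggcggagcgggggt

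Both strands of the 10 windows were searched for 4 motifs. The forkhead core GTAAACA, the letters most often given for FoxO binding, was in none of them, against 3.65% of all 32851 windows in the table. ATAAACA, a form with A in first place that was added after the sequences were read, was found once, in Gabarapl1 at chr6:129533097-129533103, against 4.6% of all windows. The E-box CACGTG was in none of the 10 windows, against 7.15%. The core of the antioxidant response element, TGACNNNGC, was found in Map1lc3b as TGACTCGGC at chr8:121590442-121590450, from base 5 of the RefSeq transcript, and in 1 of the 2 windows of Tax1bp1 as TGACGAAGC at chr6:52713960-52713968. All windows held that core at a rate of 12.4%. A match is a run of letters in this window and was not tested for binding, and no match says nothing of the factor.

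In the fit over 5 days, OKS + FoxO6 exceeded OKS + DsRed for 5 of the 9 genes, which were Map1lc3b, Optn, Sqstm1, Gabarapl1 and Gabarap, with folds of 1.5 to 1.86. Nbr1, Tax1bp1, Gabarapl2 and Map1lc3a did not pass the threshold, and none of the 9 genes was lower. The test was edgeR's quasi-likelihood test of the arm beside a term for each day, with a threshold of 0.05 on p adjusted over 11028 genes. Of all genes tested, 6.86% were higher and 7.09% were lower, and limma on log2(TPM + 1) split its calls into 491 higher and 314 lower. Estimated shifts were positive for 9 of 9 members, with a median of 0.59 on the log2 scale against a median of -0.02 over all genes tested. A positive estimate was found for 47.9% of all genes tested. That of Map1lc3a, 0.06, was negative without day 1 (-0.006), without day 7 (-0.06) and with no term for day (-0.018). The p-values rest on how far the difference between the arms varied from day to day, since no day was replicated and nothing says that the days came from separate cultures.

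**Figure D1:**
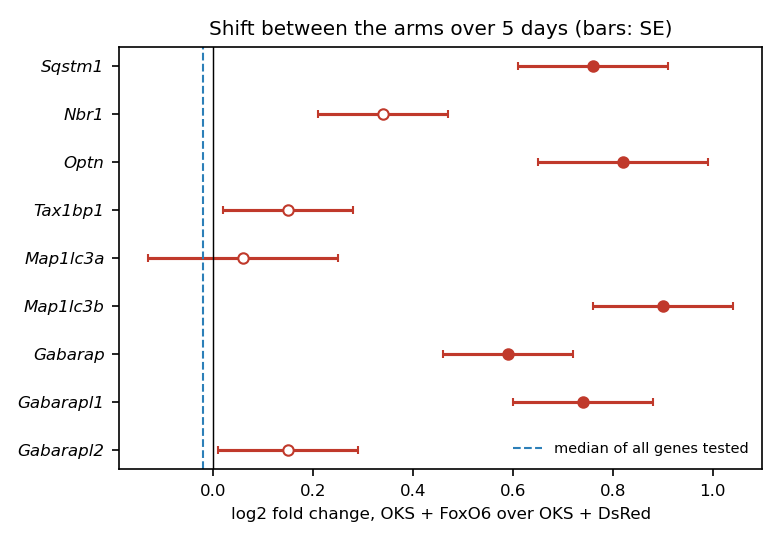
Estimated log2 fold change of each gene, OKS + FoxO6 over OKS + DsRed, in the fit over 5 days. Bars are the standard error, filled points passed an adjusted p of 0.05, and the dashed line is the median of all genes tested at -0.02. Filled points lie between 0.59 and 0.90, and open points between 0.06 and 0.34.

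Among the receptors, Sqstm1 was the most abundant. It encodes p62, which gathers ubiquitin-tagged proteins into condensates and also binds Keap1, the repressor of the oxidative stress factor Nrf2. The gene lies at chr11:50199366-50210827 on GRCm38. Its level was 414, 381, 419, 426 and 317 TPM on days 0, 1, 3, 5 and 7 in OKS + DsRed, and 578, 596, 815, 646 and 762 TPM in OKS + FoxO6. Every OKS + FoxO6 library lay above every OKS + DsRed library. Sqstm1 rose by 0.76 in log2 fold change with FoxO6 (standard error 0.15, adjusted p = 0.00696), higher on 5 of 5 days. Per library size, the fold on single days ran from 1.27 on day 0, with a 95% counting interval of 1.15 to 1.41, to 2.63 on day 7, with an interval of 2.39 to 2.9. These intervals cover counting error only. Expected counts of Sqstm1 were whole in 1 of the 10 libraries, so RSEM assigned some of its reads in part.

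Optn encodes optineurin, a receptor for damaged mitochondria and intracellular bacteria that is activated by the kinase Tbk1, and lies at chr2:5020642-5064051. It stood at 26.6, 70.6, 115, 104 and 72.5 TPM in OKS + DsRed, and at 42.4, 94.8, 167, 215 and 189 TPM in OKS + FoxO6. In both arms day 0 was the lowest library, and the ranges of the arms overlapped. On the log2 scale its shift was 0.82 (standard error 0.17, adjusted p = 0.00908), with higher levels on 5 of 5 days. Without day 5 the shift was 0.781 with an adjusted p of 0.0524, past the threshold no longer. The single-day fold per library size was between 1.28 and 1.6 on days 0, 1 and 3, then 1.98 (1.67 to 2.36) on day 5 and 2.87 (2.4 to 3.44) on day 7. Only 39 expected counts stood behind the lowest library of Optn, against 546 behind the highest.

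Nbr1 and Tax1bp1 complete the receptors. Nbr1 binds ubiquitin like p62 and joins it in condensates, and Tax1bp1 is a ubiquitin-binding receptor that recruits the machinery that starts autophagosomes. Nbr1, at chr11:101552149-101581951, stood at 49.8, 105, 124, 112 and 98.9 TPM in OKS + DsRed, and at 86.5, 148, 133, 140 and 90.1 TPM in OKS + FoxO6. The OKS + FoxO6 library was higher on days 0 to 5 and not on day 7. For Nbr1 the shift was 0.34 (standard error 0.13, adjusted p = 0.106), and without day 7 it was 0.440 with an adjusted p of 0.0216. Tax1bp1, at chr6:52713729-52766780, stood at 68.0, 88.4, 92.3, 95.1 and 77.9 TPM in OKS + DsRed, and at 95.9, 123, 87.9, 98.2 and 71.9 TPM in OKS + FoxO6. Here the arms crossed: OKS + FoxO6 was higher on days 0, 1 and 5 and lower on days 3 and 7. Per library size its fold on day 7 was 1.02 (0.84 to 1.23). The shift of Tax1bp1 was 0.15 (standard error 0.13, adjusted p = 0.508).

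Of the Atg8 genes, 3 rose with FoxO6. Map1lc3b encodes LC3B, the Atg8 protein most often used to mark autophagosomes, at chr8:121590361-121598760. Its level was 145, 164, 157, 110 and 76.5 TPM in OKS + DsRed, and 210, 255, 245, 200 and 217 TPM in OKS + FoxO6. All 5 OKS + FoxO6 libraries exceeded all 5 OKS + DsRed libraries. Map1lc3b had the largest estimate of the 9 genes in this fit, 0.90 in log2 (standard error 0.14, adjusted p = 0.00181). On day 7 its fold was 2.84 in TPM and 2.52 per library size (2.11 to 3.03). Its effective length, which TPM divides by, ran from 1714 to 2529 bases over the libraries, the widest spread among the 9 genes, and with an offset for that length the shift of Map1lc3b was 0.81 and past the threshold. Gm20388, annotated across the gene on the same strand, had 438.51 counts over all libraries, and Zcchc14, which overlaps its end on the opposite strand, had 2287.

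Gabarap, the founding member of the other Atg8 branch, whose proteins act late in autophagosome formation and in fusion with lysosomes, lies at chr11:69991143-69994951. It stood at 471, 506, 450, 449 and 388 TPM in OKS + DsRed, and at 626, 685, 723, 623 and 675 TPM in OKS + FoxO6. The arms again did not overlap. For Gabarap the shift was 0.59 (standard error 0.13, adjusted p = 0.0152), and the call was lost without day 3 (0.598, adjusted p = 0.062) or without day 5 (0.609, adjusted p = 0.0581). Gabarapl1, at chr6:129533160-129542346, is the closest relative of Gabarap. It stood at 84.5, 80.9, 82.6, 39.0 and 45.0 TPM in OKS + DsRed, and at 134, 122, 121, 84.5 and 73.6 TPM in OKS + FoxO6. The lowest libraries of each arm were those of days 5 and 7, OKS + FoxO6 was the higher arm on each day, and the ranges overlapped. Its shift was 0.74 (standard error 0.14, adjusted p = 0.00608), higher on 5 of 5 days.

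Map1lc3a and Gabarapl2, each a paralogue of a gene that rose, did not pass the test between the arms. Map1lc3a, at chr2:155276297-155278073, encodes LC3A. It stood at 137, 62.8, 65.2, 33.3 and 44.1 TPM in OKS + DsRed, and at 112, 81.1, 55.7, 45.3 and 57.4 TPM in OKS + FoxO6. Neither arm stayed above the other. The shift of Map1lc3a was 0.06 (standard error 0.19, adjusted p = 0.876), and it was the 1 gene of the 9 with a day on which the counting interval lay below 1, day 0, at a fold of 0.72 (0.55 to 0.96). Gabarapl2, at chr8:111940703-111953612, encodes GATE-16, which is also known from transport within the Golgi. It stood at 57.0, 95.5, 66.8, 93.9 and 79.4 TPM in OKS + DsRed, and at 71.6, 73.9, 94.3, 102 and 77.2 TPM in OKS + FoxO6. The arms changed order between days, and the shift of Gabarapl2 was 0.15 (standard error 0.14, adjusted p = 0.541). These 2 genes had the fewest reads summed over the libraries. Expected counts per library were 24 to 127 for Map1lc3a and 40 to 113 for Gabarapl2, so counting error is large for both. The lowest library of Optn had 39. The standard error of Gabarapl2, 0.14, equalled those of Map1lc3b and Gabarapl1, which passed.

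**Figure D2:**
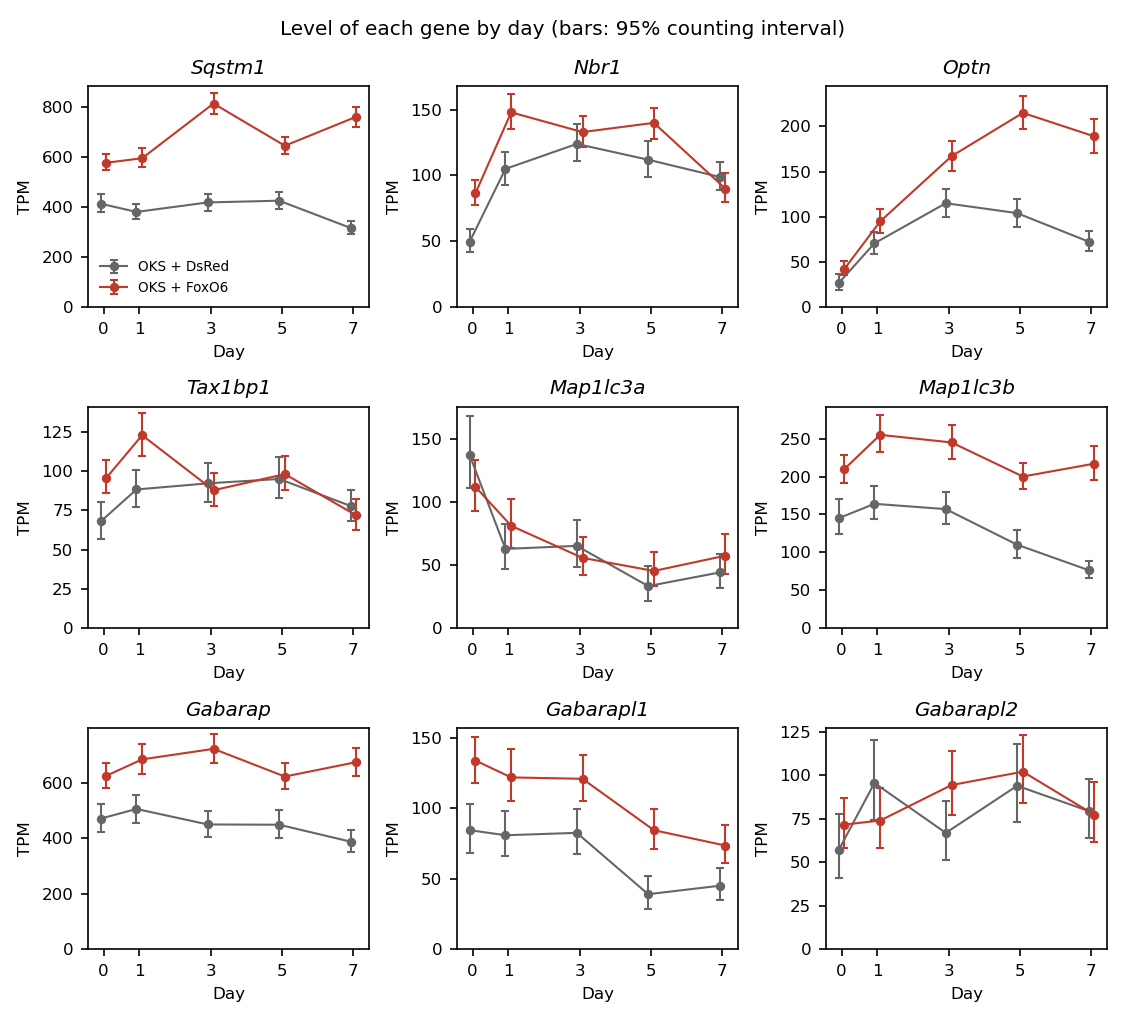
TPM of each of the 9 genes (vertical axis, from 0) against day, in OKS + DsRed (grey) and OKS + FoxO6 (red), with 1 library per point and bars for the 95% counting interval. The red line lies above the grey line at every day for Sqstm1, Optn, Map1lc3b, Gabarap and Gabarapl1.

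Counting how many genes had wholly separate arms gives 3 of 9, Sqstm1, Map1lc3b and Gabarap, where every OKS + FoxO6 library was above every OKS + DsRed library. The same held for 1.95% of the 15011 genes with a mean of at least 1 TPM. This count uses TPM alone and no fit, and the 15011 genes were not matched to the 9 in level.

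Day by day, the genes past 2-fold appeared on days 5 and 7. A gene was called past 2-fold where the difference in log2(TPM + 1) exceeded 1, with no test, since each day had 1 library per arm. On days 0, 1 and 3, 0 of the 9 genes were past 2-fold upward, against 10.6%, 8.1% and 8.21% of all genes. On day 5 Optn (1.04) and Gabarapl1 (1.10) were past it, 2 of 9 against 10.3%, and on day 7 Sqstm1 (1.26), Optn (1.37) and Map1lc3b (1.49), 3 of 9 against 8.3%. Downward, 0 of 9 passed on any day, where 6.41%, 9.43%, 11.8%, 11.4% and 16.5% of all genes did on days 0, 1, 3, 5 and 7. On the log2 of counts scaled to library size (CPM) the day 5 count was again 2, of Map1lc3b (1.14) and Gabarapl1 (1.01) with Optn at 0.98, and the day 7 count was 5 of 9, since Gabarap (1.11) and Gabarapl1 (1.07) also passed. On that scale 18.3% of all genes were past 2-fold in either direction on day 5 and 21.1% on day 7. With a mean of at least 5 TPM required, 15.5% and 19.3% of genes passed in log2(TPM + 1) on those days, in either direction. Those values were 21.7% and 24.8% at the mean of at least 1 TPM used here. The median of all genes on day 7 was -0.14 in log2(TPM + 1) and -0.01 in log2 CPM, and the median of the 9 genes was 0.70 and 1.07.

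By counting error alone, the fold per library size had a 95% interval above 1 for 7, 7, 6, 6 and 5 of the 9 genes on days 0, 1, 3, 5 and 7. Among all genes this was so for 11.5%, 10.9%, 13.6%, 14.9% and 18.2%. Those are the 15011 genes with a mean of at least 1 TPM, while the 9 genes had means of 69.3 to 560 TPM. Intervals narrow with more reads, so these shares are not matched to the 9 genes in depth. An interval below 1 was found for Map1lc3a on day 0, where 13.1% of all genes had one. The genes with an interval above 1 on every day were Sqstm1, Optn, Map1lc3b, Gabarap and Gabarapl1. Nbr1 had one on days 0 to 5, and Tax1bp1 on days 0 and 1. Map1lc3a and Gabarapl2 had none.

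**Figure D3:**
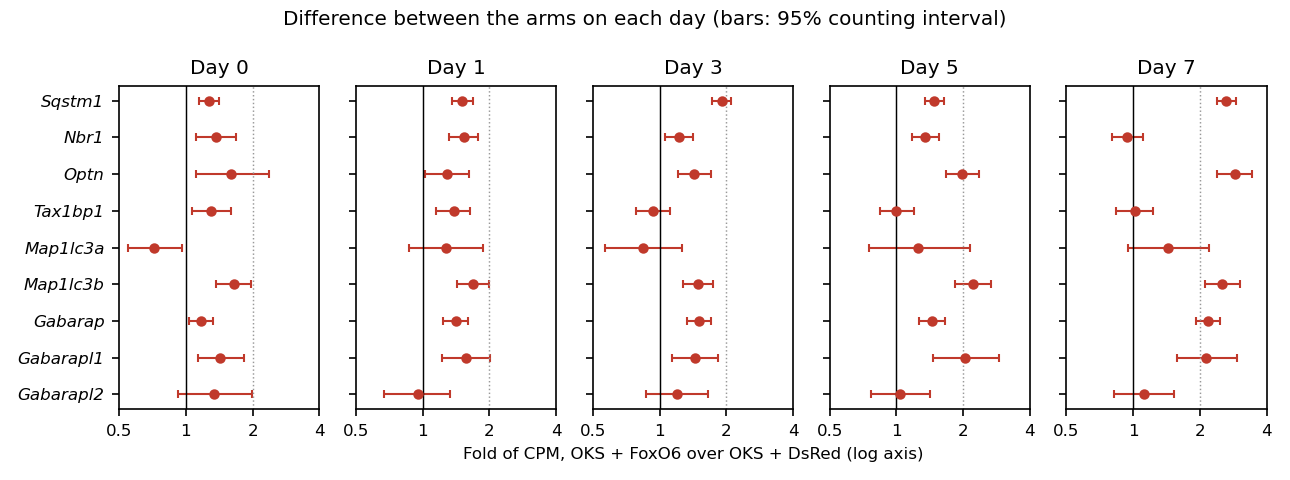
Fold of CPM, OKS + FoxO6 over OKS + DsRed, for each gene on each day, on a log axis. Bars are the 95% counting interval, the solid line marks a fold of 1 and the dotted line a fold of 2, and 5 genes lie above 2 on day 7, the highest being Optn at 2.87.

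Along the course of reprogramming, 3 of the 9 genes changed with day in a straight-line fit that the arms shared. Optn rose by 0.23 per day in log2 (standard error 0.07, adjusted p = 0.0284), which is 1.61 over 7 days. Map1lc3a fell by 0.18 per day (standard error 0.05, adjusted p = 0.0295) and Gabarapl1 fell by 0.15 per day (standard error 0.03, adjusted p = 0.00677). Over all genes, 9.9% rose and 10.1% fell in this test. Gabarapl1 passed whichever day was left out. The call of Optn was lost without day 0 (0.108), day 1 (0.259) or day 5 (0.214), and that of Map1lc3a without day 0 (-0.084) or day 5 (-0.15). Without day 7 both calls held with steeper slopes, 0.374 for Optn and -0.326 for Map1lc3a. In the same test 10 of 10 fibroblast markers fell and 3 of 3 epithelial markers rose, and the part of a changing cell mixture in these slopes was not tested.

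Within OKS + DsRed, Optn was past 2-fold upward from day 0 to day 7 (1.41 in log2(TPM + 1)) and Map1lc3a past it downward (-1.61), against 21.0% and 11.4% of all genes. Within OKS + FoxO6, Optn was again past 2-fold upward (2.13), 1 of 9 against 14.4%, and none was past it downward, against 17.0%, with Map1lc3a at -0.95. On log2 CPM Gabarapl1 also passed 2-fold downward in OKS + DsRed (-1.24, against -0.89 in log2(TPM + 1)), which made 3 of 9 past it in either direction there, near the 29.6% of all genes on that scale. Map1lc3b went from 145 to 76.5 TPM in OKS + DsRed, a change of -0.92 in log2(TPM + 1) and of -0.53 in log2 CPM, and from 210 to 217 TPM in OKS + FoxO6. Its effective length in those OKS + DsRed libraries was 1714 and 2445 bases. Nbr1 went from 49.8 to 98.9 TPM in OKS + DsRed, 0.97 in log2(TPM + 1) and 0.65 in log2 CPM, and from 86.5 to 90.1 TPM in OKS + FoxO6.

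A slope that differed between the arms was tested for each gene, and 0 of the 9 genes passed, as did 0 of 11028 genes in all (0.0%). At an unadjusted p under 0.05 there were 954 genes in all and 2 of the 9, Sqstm1 and Gabarap, whose slopes were higher in OKS + FoxO6 by 0.11 and 0.10 per day (adjusted p = 0.567 and 0.543). Without day 7 these differences were 0.05 and 0.051 per day. DESeq2 called 27 genes, with none of the 9 among them. On simulated counts with 1 library per arm and day, this test recovered 94 of 200 genes given a 4-fold change in slope over the course, so that smaller changes would often be missed. Those counts had the dispersion (spread beyond counting error) of the shift fit, 0.034, below the 0.0566 of this fit. The recovery in the real data may therefore be lower.

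**Figure D4:**
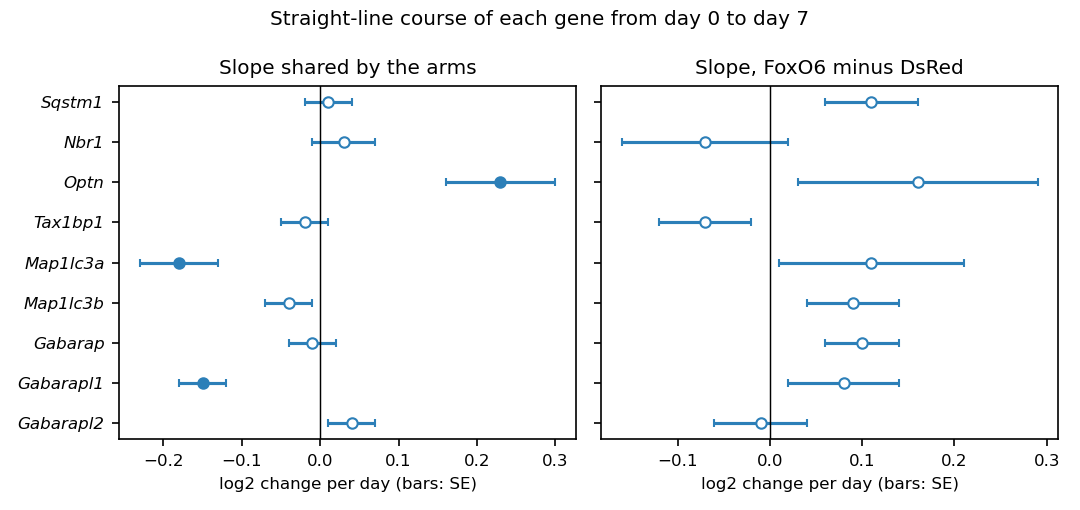
Slope of each gene in log2 per day that the arms share (left), and the slope in OKS + FoxO6 minus that in OKS + DsRed (right). Bars are the standard error and filled points passed an adjusted p of 0.05: Optn at 0.23, Map1lc3a at -0.18 and Gabarapl1 at -0.15 on the left, and none on the right.

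The order of the levels can be compared between genes in TPM, which is per length. Gabarap and Sqstm1 held the top places in all 10 libraries. Gabarap was first in every OKS + DsRed library and in OKS + FoxO6 on days 0 and 1, and Sqstm1 was first in OKS + FoxO6 on days 3, 5 and 7. Their counting intervals overlapped in all 5 OKS + FoxO6 libraries and in OKS + DsRed on days 0, 3 and 5, so the 2 genes were not separated there, and Gabarap lay above Sqstm1 beyond counting error in OKS + DsRed on days 1 and 7. On day 0 in OKS + DsRed, Map1lc3b and Map1lc3a overlapped in the next places. Gabarapl1, Tax1bp1, Gabarapl2 and Nbr1 followed, each overlapping the next, and Optn was last. By day 7 in OKS + FoxO6, Optn at 189 TPM had moved to the fourth place, overlapping Map1lc3b at 217 TPM. Map1lc3a at 57.4 TPM was last there, overlapping Tax1bp1 at 71.9 TPM.

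Summed over the class, Atg8 transcripts stood at 895, 909, 822, 725 and 633 TPM in OKS + DsRed and at 1152, 1218, 1239, 1055 and 1100 TPM in OKS + FoxO6, a ratio of 1.29 on day 0 and 1.74 on day 7. Receptor transcripts stood at 558, 645, 750, 736 and 566 TPM, and at 803, 962, 1203, 1099 and 1112 TPM, with ratios of 1.44 and 1.96. In both classes each OKS + FoxO6 library exceeded each OKS + DsRed library. Gabarap made up 57.3% ± 4.15 (SD over 5 days) of the Atg8 sum in OKS + DsRed and 57.9% ± 2.71 in OKS + FoxO6. The share of Map1lc3b was 16.1% ± 2.75 and 19.5% ± 1.04, and that of Gabarapl2 10.1% ± 2.83 and 7.32% ± 1.46. Sqstm1 made up 60.6% ± 7.7 of the receptor sum in OKS + DsRed and 65.8% ± 5.31 in OKS + FoxO6. Tax1bp1 held 12.2 to 13.8% in OKS + DsRed and 6.46 to 12.8% in OKS + FoxO6. Compared day by day, the share of Map1lc3b was higher in OKS + FoxO6 on 5 of 5 days, and the shares of Map1lc3a, Gabarapl2 and Tax1bp1 were lower on 5 of 5. With effective lengths averaged over the libraries, that of Gabarapl2 was lower on 4 of 5. The share of Gabarapl1 was higher on 3 of 5 days, and on 5 of 5 with averaged lengths. Gabarap and Sqstm1 had a higher share on 4 of 5 days, with 2 of 5 for Gabarap under averaged lengths. No test was run on shares, for which 5 paired days cannot give an exact two-sided p below 0.0625.

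**Figure D5:**
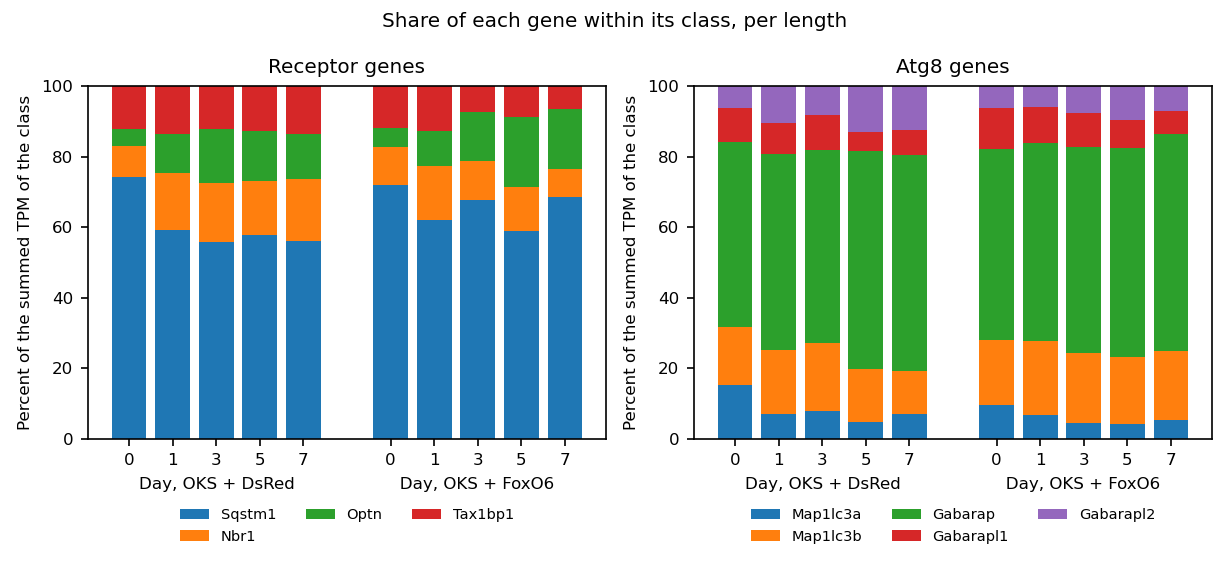
Share of each gene in the summed TPM of its class, receptors (left) and Atg8 genes (right), per library by day, in percent. Sqstm1 fills 55.8 to 74.1% of each receptor bar and Gabarap 52.6 to 62.0% of each Atg8 bar.

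Ratios of genes within a library do not depend on library size, and they were formed between Atg8 paralogues and between receptors. The pairs were chosen after the shifts were known, and the ratios are descriptions. Map1lc3b over Map1lc3a was 1.06, 2.62, 2.41, 3.29 and 1.74 in TPM in OKS + DsRed, and 1.88, 3.15, 4.39, 4.4 and 3.78 in OKS + FoxO6. It was higher in OKS + FoxO6 on 5 of 5 days, by 0.70 ± 0.35 in log2 (SD over days). Gabarapl1 over Gabarapl2 was 1.48, 0.848, 1.24, 0.415 and 0.567, and 1.87, 1.66, 1.28, 0.827 and 0.954. That ratio too was higher on 5 of 5 days, by 0.62 ± 0.41, with a difference of 0.05 on day 3. Gabarap over Gabarapl2 was higher on 5 of 5 days in TPM and on 4 of 5 in counts. Optn over Tax1bp1 was higher on 4 of 5 days, from -0.05 on day 1 to 1.5 on day 7 in log2, and Sqstm1 over Nbr1 on 4 of 5 in TPM and 3 of 5 in counts, from -0.31 on day 0 to 1.40 on day 7 in TPM.

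Other genes of the pathway were followed in 5 lists, beside the median of -0.02 and the shares of 6.86% and 7.09% given for all genes tested. Of those genes, 47.9% had a positive estimate. Of 21 other cargo receptors tested, 2 were higher and 2 lower, with a median shift of 0.21, and DESeq2 passed 3 genes of this list. Rtn3, a receptor for tubules of the endoplasmic reticulum, rose by 0.93 (standard error 0.11, adjusted p = 0.000354), and Fam134c, a relative of another such receptor, by 0.48 (adjusted p = 0.0302). Nipsnap1, which marks damaged mitochondria for autophagy, fell by 1.10 (standard error 0.20, adjusted p = 0.00494), and its paralogue Nipsnap2, listed as Gbas, fell by 0.63 (adjusted p = 0.0138).

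Of 10 genes for Atg8 conjugation and processing, the enzymes that cut Atg8 and join it to lipid, 0 passed in either direction in edgeR and 0 in DESeq2, and 1 had an unadjusted p under 0.05, as did 3077 of the 11028 genes tested. Their median shift was 0.28, and 8 of 10 estimates were positive. Among 13 partners and kinases of the receptors 2 rose: Map3k3, a kinase that binds p62, by 0.63 (standard error 0.13, adjusted p = 0.00908) and Wdr81, a partner of p62 in clearing aggregates, by 0.82 (adjusted p = 0.00279). The median of that list was 0.18. Tbk1, which phosphorylates optineurin, had a shift of 0.18 (adjusted p = 0.435), Keap1 of -0.13 (adjusted p = 0.626) and Nfe2l2, which encodes Nrf2, of 0.20 (adjusted p = 0.335). Sqstm1 is itself a known target of Nrf2, and of 9 other Nrf2 targets tested Hmox1, for heme oxygenase, rose by 0.85 (standard error 0.13, adjusted p = 0.00212) and the other 8 did not pass, with a median of 0.12. Of the 9 estimates 6 were positive, and those of genes that did not pass ran on both sides of 0, as with Slc7a11 at 0.64 (adjusted p = 0.281) and Nqo1 at -0.33 (adjusted p = 0.369). Activity of Nrf2 was not measured, and its part in the rise of Sqstm1 was not tested. Of 11 effectors that bind Atg8 proteins, Plekhm1, an adaptor between autophagosomes and lysosomes, rose by 0.78 (standard error 0.13, adjusted p = 0.0027), and the list median was 0.06.

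The genes most like each member over the 10 libraries were found by the root mean square distance of log2 levels, each centred on its own mean, among 4288 genes. For Sqstm1 these were Vps26a (0.14) and Ctsb (0.16), and the closest of the 9 genes was Gabarap (0.18). Map1lc3b lay nearest to Npc2 (0.13) and Ctsd (0.16), and Gabarap to Isca1 (0.11) and Stat6 (0.13). Gabarapl1 lay nearest to Cyb5r3 (0.14) and Ube2g2 (0.17). For Optn these were Asb13 (0.17) and Ak3 (0.26), and the closest of the 9 genes was Nbr1 (0.64). The distance is not scaled for spread, and the profile of Optn varied most, with an SD of 0.89 against 0.23 to 0.58 for the other members. Nbr1 itself lay nearest to Aggf1 (0.13), Tax1bp1 to Cd2ap (0.12), Map1lc3a to Myl6 (0.22) and Gabarapl2 to Dazap2 (0.13).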

How the data were processed

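The authors sequenced mRNA of 10 libraries, aligned it with Bowtie2 and estimated abundances with RSEM on GENCODE M13 (mm10), per the labels and the methods of the study. The labels and the methods name different library kits. The deposited expected counts are RSEM estimates with no further normalization, and RSEM gave the authors TPM from them and each gene's effective length, which was also deposited. Expected counts were whole in all 10 libraries for 7 of the 9 genes, in 9 for Gabarapl1 and in 1 for Sqstm1, and were rounded for the tests. Counts of the 48476 genes in the table were identical in the library files, which hold 2124 further genes with at most 0.312% of a library's counts.

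edgeR 4.0.16 (R 4.3.3) with TMM scaling and filterByExpr tested 11028 genes, with Benjamini-Hochberg adjustment, for the arm beside day as a factor, for a slope in day beside the arm, and for their interaction. Single days were compared in log2(TPM + 1) over 15011 genes with a mean of at least 1 TPM, and by counts with exact Clopper-Pearson 95% intervals of the ratio, which cover counting error only. The fits were checked on simulated data, where 199 of 200 genes with a 4-fold shift were recovered with 10 false calls. DESeq2 1.42.0, limma 3.58.1, other scalings and filters and leaving out each day were alternatives. Python 3.11.15 with pandas 2.3.3, scipy 1.17.1 and matplotlib 3.10.9 did the rest. Coordinates are from GENCODE M21. The text names all 9 genes, the genes of the lists that passed with a few that did not, and the nearest profiles of each gene. The 9 genes and the lists were chosen with earlier results of these data known.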

Additional observations from a re-analysis of the deposited data

Results flagged for a closer look

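Between the day 0 and day 7 libraries, Sqstm1 moved in opposite directions in the arms. How many of all genes did so was not counted. In OKS + DsRed, Sqstm1 stood at 414, 381, 419 and 426 TPM on days 0, 1, 3 and 5, and at 317 TPM on day 7. From day 0 to day 7 its fold of counts per library size was 0.71 in OKS + DsRed (95% counting interval 0.63 to 0.8) and 1.47 in OKS + FoxO6 (1.36 to 1.59). Gabarap did the same, at 0.69 (0.6 to 0.8) in OKS + DsRed and 1.28 (1.16 to 1.42) in OKS + FoxO6. Each interval leaves out 1 and covers counting error only. In TPM the folds were nearer to 1, at 0.77 and 1.32 for Sqstm1 and 0.82 and 1.08 for Gabarap. The difference of the slopes over 5 days, tested with edgeR's quasi-likelihood test, had an adjusted p of 0.567 for Sqstm1 and 0.543 for Gabarap. With day 7 left out, that difference went from 0.113 to 0.05 per day for Sqstm1 and from 0.101 to 0.051 for Gabarap.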

How the results depend on the processing

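The count of 5 genes higher in OKS + FoxO6 was also 5 with other size factors, an offset for effective length, no filter, DESeq2 and limma. It was 2 with no term for day, where Optn (0.872, adjusted p = 0.376), Gabarap (0.585, adjusted p = 0.0628) and Gabarapl1 (0.697, adjusted p = 0.251) kept shifts of about the same size but not the call, and ran from 3 to 6 when each day was left out. Over all genes, 1538 were past the threshold, 805 with limma, 169 with no term for day, and 655 to 1545 when a day was left out. The 3 genes with a shared slope became 1 to 3 when a day was left out, and 2205 over all genes became 1283 to 2056. For the slope difference, 0 genes in all became 10 with no filter, 27 with DESeq2, and 0 to 1 when a day was left out. On day 7 the count past 2-fold went from 3 to 5 on log2 CPM. Estimates changed sign only for values under the threshold in these alternatives. The shift of Map1lc3a was -0.018 with no term for day and ran from -0.060 to 0.226 over the days left out, the slope of Nbr1 from -0.057 to 0.112 and that of Tax1bp1 from -0.048 to 0.009, and the slope difference of Gabarapl2 was 0.022 with an offset for effective length and ran from -0.044 to 0.026. The cause was not tested. The main test of the shift pairs the arms by day through its term for day, and the alternative with no such term is the unpaired one. Map1lc3a and Gabarapl2 had the fewest reads summed over the libraries, and 1 library per arm and day gives no replicate error for a single day.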
